A study of Mus musculus with 12 samples.

Results

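*Tmem215*, *Scarf1*, and *Trim47* are 3 of the 55291 genes whose reads were counted in mouse Lin-cKit+ (LK) bone marrow cells, and 3 of the 15825 genes with enough reads to be compared. They were selected on values of these same libraries. Their RNA was higher in Asxl1Y588XTg than in WT cells and lower again after loss of 1 *Kdm6b* allele on the Asxl1Y588XTg background, while the loss on the WT background did not lower them in the same way. Their levels and the fold changes of these comparisons are therefore given as a description, without a test. LK cells bear no markers of mature lineages on their surface but do bear the receptor cKit, and they include hematopoietic stem cells (HSCs) and the progenitors derived from them. Each of the 12 libraries came from 1 C57BL/6 mouse of 12 months of age, with 3 mice of each of 4 genotypes.

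WT mice carried neither alteration. Asxl1Y588XTg mice carried a transgene for truncated Asxl1, whose promoter is not given in the sources used here. In Kdm6bΔ/+ mice, 1 floxed *Kdm6b* allele was deleted by the interferon-inducible *Mx1Cre* transgene after 3 injections of pI:pC, which mimics viral RNA. Asxl1Y588XTg Kdm6bΔ/+ mice, labelled as double mutation and called the double mutant here, carried both. The sources do not say whether the WT and Asxl1Y588XTg mice of these libraries also carried *Mx1Cre* or received pI:pC, so effects of Cre or of the injections cannot be told apart from those of the deletion. *Mx1Cre* acts in other interferon-responsive cells besides blood cells. LK cells were enriched with beads, and fewer cells of a type in the fraction cannot be told apart from less RNA per cell in bulk RNA.

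ASXL1 is a chromatin protein that takes part in Polycomb regulation, and C-terminal truncations of it recur in myeloid malignancies. KDM6B is a demethylase that removes the repressive methyl marks from lysine 27 of histone H3, and the study asked whether loss of 1 *Kdm6b* allele undoes the changes made by the transgene. The 3 genes encode proteins of unlike function. *Tmem215* encodes a transmembrane protein of the endoplasmic reticulum studied in endothelial survival. *Scarf1* encodes a scavenger receptor of endothelial and phagocytic cells that takes up modified lipoproteins and apoptotic cells. *Trim47* encodes a RING-type E3 ubiquitin ligase of the tripartite motif (TRIM) family.

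In the mm10 (GRCm38) build with the GENCODE vM21 annotation, *Tmem215* (ENSMUSG00000046593.3) lies on the plus strand of chromosome 4 from 40472180 to 40477168. *Scarf1* (ENSMUSG00000038188.17) lies on the plus strand of chromosome 11 from 75513540 to 75526582. *Trim47* (ENSMUSG00000020773.11) lies on the minus strand of chromosome 11 from 116105752 to 116127210. *Kdm6b* itself is on chromosome 11, with a gap of 6.1 Mb between its gene body and that of *Scarf1* and of 46.69 Mb to that of *Trim47*. *Tmem215* and *Scarf1* overlap no other annotated gene. *Trim47* shares 225 exon bases, 8.23% of its exons, with *Trim65* on the same strand, so part of its reads could have been assigned differently.

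The promoters of *Tmem215* and *Trim47* are shown as regulatory sequence of the genes, since these 2 of the 3 genes matched a RefSeq window. CpG density was described because the choice of the genes did not use it. Each window is the 230 bases from 250 to 21 bases before a RefSeq start in GRCm38.p6, read 5′ to 3′ on the strand of the gene, with CpG dinucleotides in capitals. The first is chr4:40471930-40472159 on the plus strand. The second is chr11:116110256-116110485 on the minus strand, within the gene body that GENCODE draws from an upstream start.
Tmem215: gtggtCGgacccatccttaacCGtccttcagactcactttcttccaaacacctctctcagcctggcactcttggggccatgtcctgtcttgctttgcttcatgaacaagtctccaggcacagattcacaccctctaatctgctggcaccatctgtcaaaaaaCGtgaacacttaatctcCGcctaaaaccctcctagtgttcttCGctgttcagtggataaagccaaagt
Trim47: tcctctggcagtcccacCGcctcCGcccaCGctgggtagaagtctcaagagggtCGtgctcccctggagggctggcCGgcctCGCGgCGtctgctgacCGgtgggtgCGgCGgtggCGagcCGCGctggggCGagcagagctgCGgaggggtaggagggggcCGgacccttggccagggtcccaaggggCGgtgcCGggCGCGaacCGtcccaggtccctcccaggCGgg
The *Tmem215* window held 5 CpGs, the median of 32817 RefSeq windows of the same length (quartiles 2 and 14), and 47.43% of windows held fewer. The *Trim47* window held 23 CpGs, more than 89.75% of windows, and its GC content of 75.22% was above that of 96.19% of windows. The GC content of the *Tmem215* window was 49.13%. Motif letters were searched on both strands. The MEIS letters TGACAG occurred in 1 place in the *Tmem215* window and were held by 14.8% of all windows. The other motifs were in neither window. Among these the GATA letters AGATAA were held by 9.49% of all windows, and the RUNX letters TGTGGT were held by 13.2%. The ETS letters CCGGAA were held by 10.3% of all windows, and the alternative ETS letters AGGAAG by 27.2%. The E-box letters CAGCTG were held by 11.8% of all windows, and the AP-1 letters TGANTCA by 6.34%. This match overlapped no other motif searched, and it was not tested as a binding site.

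Before the values of the 3 genes, the libraries were compared with their labels. Reads counted on genes ranged from 16310456 to 19208274 per library in WT, from 14451522 to 17981795 in Kdm6bΔ/+, from 16738503 to 17471909 in Asxl1Y588XTg, and from 17080728 to 23482563 in the double mutant. Levels are given as normalized counts, reads scaled to a common library size with TMM factors. *Kdm6b* was at 2142, 2372, and 1869 normalized counts in the WT libraries and at 1622, 1529, and 1346 in the Kdm6bΔ/+ libraries. It was at 2270, 2303, and 2187 in the Asxl1Y588XTg libraries and at 1649, 1873, and 1909 in the double mutant libraries. Every library with the deletion was thus below every library of its counterpart without it. The log2 fold change of *Kdm6b* was −0.51 (SE 0.11) for Kdm6bΔ/+ against WT and −0.30 (SE 0.07) for the double mutant against Asxl1Y588XTg, with Benjamini-Hochberg adjusted p-values of 0.279 and 0.0717 in the quasi-likelihood test of edgeR, so neither passed. *Kdm6b* shares 4.11% of its exon bases with its antisense gene *Kdm6bos*, and whether strand was used in counting is not given in the sources used here. No difference in *Kdm6b* RNA was detectable between Asxl1Y588XTg and WT (log2 0.08, SE 0.09). *Asxl1* reads, which the transgene could share, were 2796 ± 269 in WT and 3000 ± 82.4 (SD, n = 3) in Asxl1Y588XTg.

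The LK label was checked against 10 progenitor markers, all with enough reads to be tested. *Mpo*, the granule peroxidase of myeloid progenitors, was the most abundant at 180361 ± 12766 normalized counts in WT, and *Kit*, the gene of cKit, was at 6094 ± 299.8. The markers of mature neutrophils summed to 1078030 ± 231191 in WT and 969475 ± 86250 in Asxl1Y588XTg, led by *S100a9* at 288865 ± 55892 in WT, so RNA of later neutrophil stages was also present. Y-linked transcripts were present in 0 of 3 WT, 2 of 3 Kdm6bΔ/+, 1 of 3 Asxl1Y588XTg, and 3 of 3 double mutant libraries. The Y chromosome therefore separated WT from the double mutant completely, and values within libraries of the same kind are given for the 3 genes. *Kdm6a*, the X-linked relative of *Kdm6b*, was at 2135 ± 106 in WT and at 1285 ± 23.3 in the double mutant. In both genotypes with libraries of each kind it was lower in libraries with Y-linked transcripts (1268 and 1334 against 2097 in Kdm6bΔ/+, and 1233 against 2163 and 2150.4 in Asxl1Y588XTg).

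*Tmem215*, the gene of the endoplasmic reticulum protein, was at 51.2, 51.3, and 44.9 normalized counts in the 3 WT libraries and at 35.2, 40.7, and 55.0 in the Kdm6bΔ/+ libraries. It was at 308, 286, and 239 in the Asxl1Y588XTg libraries. It was at 23.6, 29.0, and 56.7 in the double mutant libraries. All 3 Asxl1Y588XTg libraries stood far above the other 9, whose values overlapped between genotypes. The mean rose in order from 36.4 ± 17.8 in the double mutant through 43.6 ± 10.2 in Kdm6bΔ/+ and 49.2 ± 3.67 in WT to 278 ± 35.1 in Asxl1Y588XTg (SD, n = 3). No neighbours among the lowest 3 genotypes differed beyond their spread. The fitted level was 5.62-fold higher in Asxl1Y588XTg than in WT, a log2 fold change of 2.49 (SE 0.20), and 7.62-fold lower in the double mutant than in Asxl1Y588XTg, a log2 fold change of −2.93 (SE 0.30). These values rest on 28 to 56 reads per library outside Asxl1Y588XTg, and on 236 to 306 reads per library in Asxl1Y588XTg.

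*Scarf1*, the scavenger receptor gene, was at 199, 218, and 224 normalized counts in WT libraries and at 251, 232, and 322 in Kdm6bΔ/+ libraries. It was at 523, 533, and 497 in Asxl1Y588XTg libraries and at 190.3, 223, and 273 in double mutant libraries. The Asxl1Y588XTg libraries again lay above all others, with a narrow spread. The order was WT (214 ± 13.2), the double mutant (229 ± 41.8), Kdm6bΔ/+ (268 ± 47.3), and Asxl1Y588XTg (518 ± 18.6). WT and the double mutant overlapped, as did the double mutant and Kdm6bΔ/+. The Kdm6bΔ/+ libraries did not overlap the WT libraries, the lowest at 232 against a highest of 224. The share of all tested genes whose libraries did not overlap is not given here, so such separations of the 3 genes are descriptions only. *Scarf1* was 2.42-fold higher in Asxl1Y588XTg than in WT (log2 1.28, SE 0.12) and 2.24-fold lower in the double mutant than in Asxl1Y588XTg (log2 −1.17, SE 0.13). Of the 3 genes it had the most reads in WT and the smallest fold changes in both comparisons.

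*Trim47*, the ubiquitin ligase gene, was at 40.3, 51.3, and 68.5 normalized counts in WT libraries and at 75.4, 39.7, and 34.3 in Kdm6bΔ/+ libraries. It was at 543, 526, and 375 in Asxl1Y588XTg libraries and at 125, 86.0, and 152 in double mutant libraries. Unlike *Tmem215* and *Scarf1*, it formed 3 tiers without overlap, with WT and Kdm6bΔ/+ together at the bottom, the double mutant between, and Asxl1Y588XTg on top. The means were 49.8 ± 22.4 in Kdm6bΔ/+, 53.4 ± 14.2 in WT, 121 ± 33.0 in the double mutant, and 481 ± 92.8 in Asxl1Y588XTg. *Trim47* was 9.02-fold higher in Asxl1Y588XTg than in WT (log2 3.17, SE 0.23) and 3.93-fold lower in the double mutant than in Asxl1Y588XTg (log2 −1.98, SE 0.23).

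**Figure D1:**
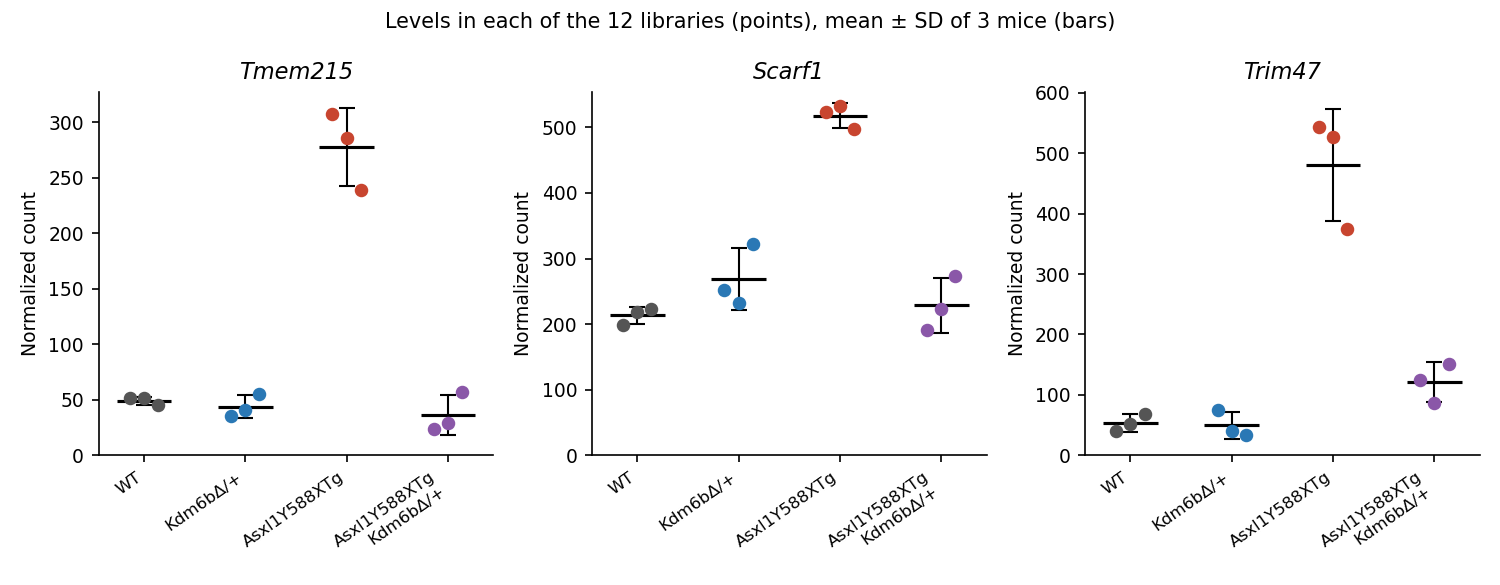
Normalized counts (vertical axes, starting at 0) of *Tmem215*, *Scarf1*, and *Trim47* in each library (points) of the 4 genotypes, with the mean and SD of 3 mice (black bars). The Asxl1Y588XTg points stand above all others for each gene, and only for *Trim47* do the double mutant points (86.0 to 152) clear those of WT (40.3 to 68.5).

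All 3 genes were among the 1.58% of tested genes called higher in Asxl1Y588XTg than in WT and among the 1.59% called lower in the double mutant than in Asxl1Y588XTg. A call required a Benjamini-Hochberg adjusted p below 0.05 in the edgeR quasi-likelihood test and a fold change above 1.5. Calls in the opposite directions were rare. They were 0.0316% of genes lower in Asxl1Y588XTg than in WT and 0.145% higher in the double mutant than in Asxl1Y588XTg. Without WT replicate 2, 42 genes in place of 5 were called lower in Asxl1Y588XTg than in WT. Without Asxl1Y588XTg replicate 1, 56 genes in place of 23 were called higher in the double mutant than in Asxl1Y588XTg. These comparisons chose the genes and have in common the Asxl1Y588XTg libraries, so nothing follows from the calls. The call of *Trim47* in the double mutant against Asxl1Y588XTg was lost without double mutant replicate 1, at a log2 fold change of −2.00 (SE 0.30). In all, 140 genes were called in both directions, and the 3 genes were spread widely among them. By size of rise *Tmem215* was in place 50, *Scarf1* in place 116, and *Trim47* in place 29. By size of fall they were in places 6, 101, and 25.

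Levels of different genes can be compared per kilobase of exon. On that scale WT cells had 10.4 ± 0.775 normalized counts per kilobase of *Tmem215*, 74.0 ± 4.58 of *Scarf1*, and 19.5 ± 5.20 of *Trim47*. Asxl1Y588XTg cells had 58.5 ± 7.41, 179 ± 6.43, and 176 ± 33.9. *Scarf1* was thus several times the level of *Trim47* in WT, and in Asxl1Y588XTg cells the ranges of these genes overlapped. Among 15481 tested genes with an exon length, *Tmem215* moved from percentile 21.4 in WT to 46.3 in Asxl1Y588XTg and 16.3 in the double mutant. *Scarf1* moved from percentile 50.9 to 69.9 and back to 52.3. *Trim47* moved from 30.6 to 69.4 and stopped at 42.5, so none of the 3 was among the most abundant RNAs of LK cells in any genotype.

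The comparisons that the choice did not use directly were those of the double mutant with WT and with Kdm6bΔ/+, although they share the double mutant libraries with it. The double mutant against WT gave log2 fold changes of −0.43 (SE 0.38) for *Tmem215* and 0.11 (SE 0.17) for *Scarf1*, with overlapping libraries. For *Trim47* it gave 1.19 (SE 0.29), a 2.29-fold higher level with no overlap between the libraries. Against Kdm6bΔ/+ the values were −0.28 (SE 0.36) for *Tmem215*, −0.23 (SE 0.17) for *Scarf1*, and 1.30 (SE 0.31) for *Trim47*. Of the 3 genes only *Trim47* again had no overlap. The share of all tested genes without overlap is not given here, so nothing follows from it. By edgeR with the filter on low counts none of the 3 was called in either comparison, and *Trim47* was called higher in both by DESeq2 and by edgeR without the filter. By edgeR with the filter 0.145% and 0.0569% of genes were called higher in these comparisons and 0.0695% and 0.0379% lower. The share of the rise from WT to Asxl1Y588XTg that the double mutant kept was −5.57% for *Tmem215*, 5.05% for *Scarf1*, and 15.7% for *Trim47*. By double mutant library these shares were −11.2%, −8.83%, and 3.31% for *Tmem215*, and −7.62%, 3.11%, and 19.7% for *Scarf1*. For *Trim47* they were 16.7%, 7.62%, and 23.0%, all above 0. Replicate 3 was the highest double mutant library for each of the 3 genes, and Asxl1Y588XTg replicate 3 was the lowest Asxl1Y588XTg library for each.

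On the WT background the deletion of 1 *Kdm6b* allele gave log2 fold changes of −0.17 (SE 0.33) for *Tmem215*, 0.33 (SE 0.17) for *Scarf1*, and −0.11 (SE 0.38) for *Trim47*. By edgeR none was called, in a comparison with 0.0758% of genes called higher and 0.019% lower. Taking its effect with WT background from its effect with Asxl1Y588XTg background left −2.77 (SE 0.41) on the log2 scale for *Tmem215*, −1.51 (SE 0.21) for *Scarf1*, and −1.88 (SE 0.42) for *Trim47*. In that difference 0% of genes were called higher and 0.0126%, 2 genes, were called lower, and the 2 were *Tmem215* and *Scarf1*. The choice of the genes used this pattern. With a term for Y-linked transcripts edgeR called 0 genes in this difference, and it called 0 genes when any 1 of 10 of the 12 libraries was left out. It called 10 genes without Asxl1Y588XTg replicate 3 and 7 without double mutant replicate 3. With the term for Y-linked transcripts the difference was −2.77 (SE 0.42) for *Tmem215* and −1.51 (SE 0.21) for *Scarf1*. Among the 140 genes called in both directions, whose fall in the double mutant is a term of this difference, the sizes of the differences of *Tmem215*, *Trim47*, and *Scarf1* took places 13, 31, and 47.

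**Figure D2:**
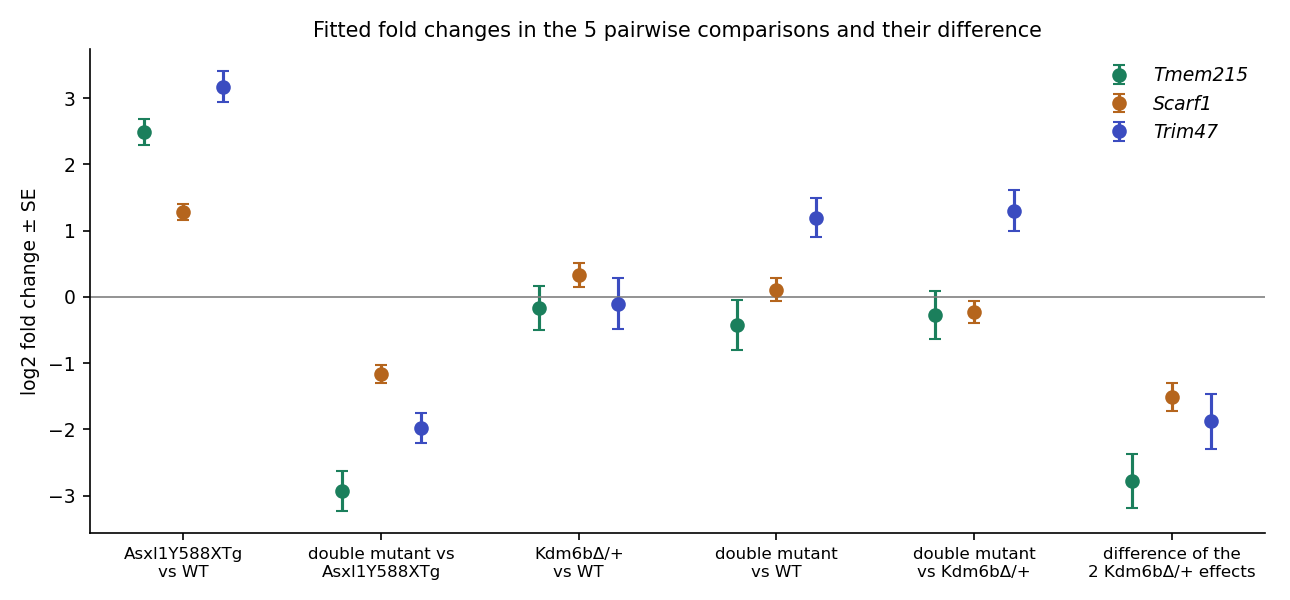
Fitted log2 fold changes (vertical axis, points with SE bars) of the 3 genes in the 5 comparisons of genotypes and, at the right, the difference between the effects of the *Kdm6b* deletion on the Asxl1Y588XTg and WT backgrounds. *Trim47* stays above 0 in the double mutant against WT (1.19) and against Kdm6bΔ/+ (1.30), where the values of *Tmem215* and *Scarf1* run from −0.43 to 0.11.

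The presence of Y-linked transcripts differed between genotypes, so the fold changes were also computed among libraries of the same kind. In libraries without them, Asxl1Y588XTg against WT gave 2.47 (SE 0.25) for *Tmem215*, 1.26 (SE 0.16) for *Scarf1*, and 3.11 (SE 0.27) for *Trim47* on the log2 scale. In libraries with them, the double mutant against the lone Asxl1Y588XTg library gave −2.97 (SE 0.39), −1.20 (SE 0.19), and −2.10 (SE 0.25). These comparisons are among those that chose the genes, and the SE of the second takes its replicate spread from the double mutant libraries alone, the lone library being assumed to vary like them. For *Scarf1* the higher level in Kdm6bΔ/+ than in WT was 0.12 (SE 0.28) when libraries with Y-linked transcripts were left out. This kept 1 Kdm6bΔ/+ library, replicate 2, which had the lowest *Scarf1* level of its genotype. The replicate spread in this SE comes from the WT libraries alone. WT held no library with Y-linked transcripts and the double mutant held none without, so between those genotypes the values could not be separated in this way.

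The patterns of the 3 genes over the 12 libraries were set against those of all 11055 genes averaging 50 or more normalized counts, by Pearson r of log2 levels. These correlations describe libraries that share genotypes and carry no test. *Tmem215* and *Scarf1* were close, with r = 0.948, and *Scarf1* was place 7 in likeness to *Tmem215*. After removal of the genotype means their r was still 0.829, but the order of libraries was the same for both genes only in the double mutant. In WT, replicate 3 was the lowest for *Tmem215* and the highest for *Scarf1*. *Trim47* was less like either, with r = 0.809 to *Tmem215* and 0.811 to *Scarf1*. Within genotypes these fell to 0.0293 and 0.0796.

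The 5 genes most alike to *Tmem215* were *Arhgef28* (r = 0.963), *Hlf* (0.956), *Plod1* (0.954), *Gng11* (0.954), and *Kctd17* (0.952). *Arhgef28* encodes a guanine nucleotide exchange factor, *Hlf* a transcription factor of HSCs, *Plod1* a collagen lysyl hydroxylase, and *Gng11* a G protein gamma subunit. *Arhgef28* was at 130 ± 4.21 normalized counts in WT, 264 ± 29.1 in Asxl1Y588XTg, and 133 ± 31.0 in the double mutant. *Hlf* was at 576 ± 62.1, 1382 ± 97.7, and 587 ± 215. Both had smaller fold changes than *Tmem215*, with log2 values of 1.02 and 1.26 for Asxl1Y588XTg against WT.

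The 5 most alike to *Scarf1* were *Vldlr* (r = 0.955), *Plod1* (0.953), *Tmem215* (0.948), *Ighg2b* (0.948), and *Ifitm1* (0.946). *Vldlr* encodes a receptor of lipoproteins of very low density, *Ighg2b* is an immunoglobulin heavy chain constant gene, and *Ifitm1* encodes an interferon-induced membrane protein. *Vldlr* was at 106 ± 10.1 in WT, 667 ± 85.9 in Asxl1Y588XTg, and 169 ± 91.7 in the double mutant. *Ighg2b* was at 617 ± 135, 4037 ± 1190.1, and 830.5 ± 362.

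Among the genes most alike to *Trim47* were *Slc27a6* (r = 0.982), *Col16a1* (0.972), *Mmrn1* (0.972), and *Plscr2* (0.969). *Slc27a6* encodes a fatty acid transporter, *Col16a1* a collagen chain, *Mmrn1* multimerin of platelets and endothelium, and *Plscr2* a phospholipid scramblase. *Slc27a6* was at 16.6 ± 7.12 in WT, 136 ± 21.9 in Asxl1Y588XTg, and 41.3 ± 15.5 in the double mutant. *Col16a1* was at 67.8 ± 23.9, 596 ± 143, and 171 ± 44.3. The log2 fold changes of the double mutant against WT were 1.33 for *Slc27a6*, 1.35 for *Col16a1*, 0.77 for *Mmrn1*, and 1.27 for *Plscr2*. These genes were picked for likeness to *Trim47* over the same libraries, so values above 0 follow from the choice.

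**Figure D3:**
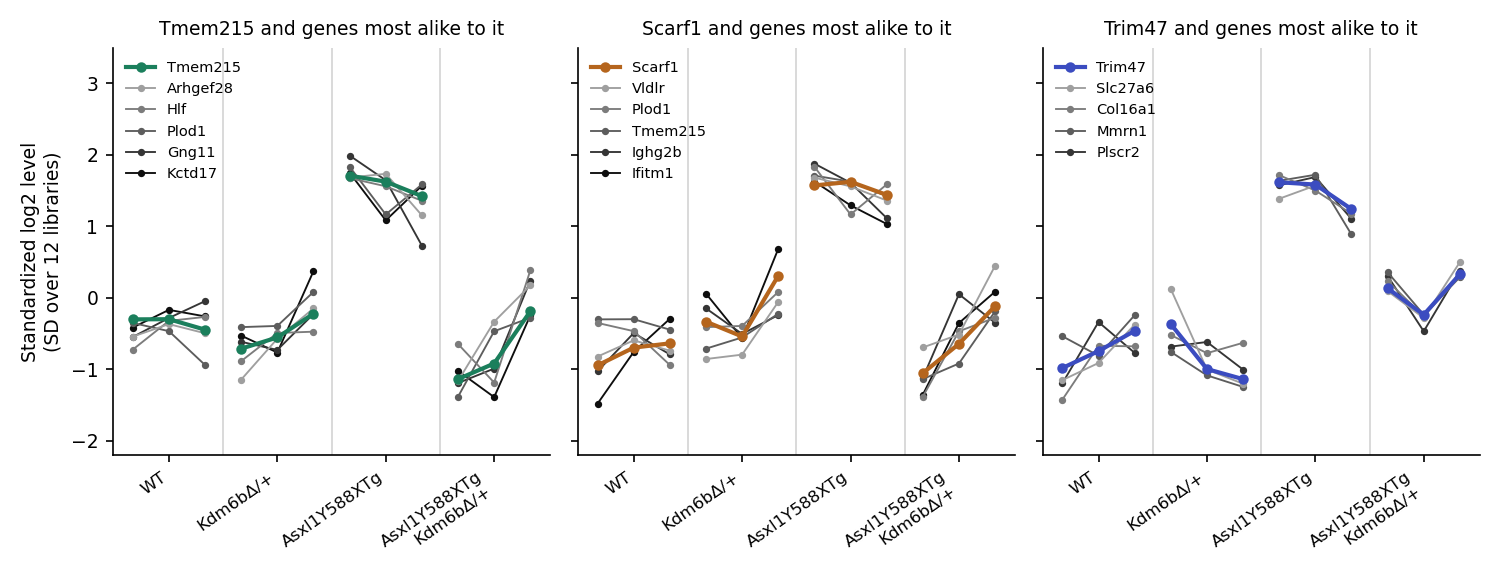
Log2 levels of each of the 3 genes (colored) and of the genes named as most alike to it (grey to black), standardized over the 12 libraries to units of SD and drawn by genotype, with lines joining the 3 libraries of a genotype for reading only. All lines peak in Asxl1Y588XTg, and the *Trim47* set (r from 0.969 to 0.982) sits higher in the double mutant than in WT. The genes were picked for likeness over these same libraries, so both features follow from the choice.

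The 3 genes were set beside lists of HSC and endothelial genes, which leave out the 3 genes themselves. Of 30 tested HSC genes, 19 (63.3%) were called higher in Asxl1Y588XTg than in WT, and 18 (60.0%) were called lower in the double mutant than in Asxl1Y588XTg. Over all tested genes these shares were 1.58% and 1.59%. Their median log2 fold changes were 1.79 and −1.23, against −0.01 and −0.0043 over all tested genes. The largest called changes were those of *Hoxb5*, *Procr*, *Fgd5*, *Neo1*, *Cdkn1c*, and *Sult1a1*. *Hoxb5*, a homeobox gene of long-term HSCs, had 0, 1, and 3 reads in WT and 25, 29, and 27 in Asxl1Y588XTg, with 12, 4, and 13 in the double mutant. *Procr*, the endothelial protein C receptor of HSCs, rose by 2.97 (SE 0.51, adjusted p = 0.0230) and fell by 2.16 (SE 0.38, adjusted p = 0.0375) on the log2 scale in the edgeR quasi-likelihood test. *Fgd5*, a Cdc42 exchange factor and HSC marker, rose by 2.53 (SE 0.27, adjusted p = 0.00266) and fell by 1.65 (SE 0.21, adjusted p = 0.00632) in the same edgeR test.

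The HSC calls depended on the libraries and the model. In 1 fit of all genotypes 13 HSC genes, not 18, were called lower in the double mutant than in Asxl1Y588XTg. With a term for Y-linked transcripts added to that fit the number was 3. In the separate fit without double mutant replicate 1 the number was 6. Without double mutant replicate 2 it was 8. The number called higher in Asxl1Y588XTg than in WT was 10 without WT replicate 3, 11 without Asxl1Y588XTg replicate 1, 11 without Asxl1Y588XTg replicate 2, and 12 without Asxl1Y588XTg replicate 3. Leaving out Asxl1Y588XTg replicate 2 leaves only libraries without Y-linked transcripts. The number called higher was 22 with all genotypes in 1 fit, with or without the term for Y-linked transcripts. *Meis1*, *Prdm16*, *Gata2*, and *Hoxb5* on this list were named by the study from these same libraries and are not independent of it. In Kdm6bΔ/+ against WT edgeR called 0 HSC genes, DESeq2 also 0, and at an unadjusted p under 0.05 in edgeR 1 of 30 was higher and 3 were lower, against 1.3% and 2.19% of all tested genes. In the double mutant against WT edgeR and DESeq2 again called 0, with 6 of 30 HSC genes higher at an unadjusted p under 0.05, against 3.73% of all tested genes, and a median log2 fold change of 0.47.

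Of 30 tested endothelial genes, 6 (20.0%) were called higher in Asxl1Y588XTg than in WT and 4 (13.3%) lower in the double mutant than in Asxl1Y588XTg, against 1.58% and 1.59% of all tested genes, with median log2 fold changes of 1.06 and −0.18. *Tek*, the angiopoietin receptor, rose by 1.81 (SE 0.26, adjusted p = 0.00835) and fell by 1.39 (SE 0.20, adjusted p = 0.00861) on the log2 scale in the edgeR quasi-likelihood test. *Podxl*, a sialomucin, rose by 2.85 (SE 0.36, adjusted p = 0.00539) in that edgeR test, with 318, 517, and 194 normalized counts in Asxl1Y588XTg against 57.6, 37.1, and 47.1 in WT. *Cldn5*, a tight junction claudin, rose by 2.71 (SE 0.42, adjusted p = 0.0125) and fell by 1.91 (SE 0.41, adjusted p = 0.0465) in the edgeR test. *Ramp2*, an adrenomedullin receptor partner, had 0 reads in each WT library and 49, 37, and 16 in Asxl1Y588XTg. *Robo4*, a receptor of endothelium and HSCs, was called higher in Asxl1Y588XTg (log2 1.78, SE 0.30), and *Esam*, an adhesion molecule of both, was called lower in the double mutant (log2 −1.73, SE 0.17) but missed the threshold for a rise (log2 2.82, SE 0.59). The number called higher was 3 without WT replicate 3 or without Asxl1Y588XTg replicate 2. It was 8 with all genotypes in 1 fit, with or without a term for Y-linked transcripts. The number called lower was 2 without Asxl1Y588XTg replicate 1 or without double mutant replicate 1 or 2. It was 3 with all genotypes in 1 fit and 2 with the term for Y-linked transcripts added. In the double mutant against WT edgeR and DESeq2 called 0 endothelial genes, with 7 of 30 higher at an unadjusted p under 0.05, against 3.73% of all tested genes, and a median of 0.59.

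HSCs express some endothelial genes. The lists shared 4 genes. Of the other 26 tested endothelial genes, 4 were called higher in Asxl1Y588XTg than in WT, against 1.58% of all tested genes. In the double mutant against Asxl1Y588XTg, 2 of the 26 were called lower, against 1.59% of all tested genes. *Sox7*, *Sox17*, and *Gpihbp1*, which mark endothelium, had 3 reads or fewer in every library. Averaged over all 12 libraries *Erg*, which blood stem cells also express, was the most abundant gene of both lists, and in Asxl1Y588XTg *Vwf* was the most abundant endothelial gene. The endothelial list summed to 6469, 5660 (WT replicate 2), and 6485 in WT and to 11396, 13860, and 8977 in Asxl1Y588XTg.

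Summed over the 30 genes, the HSC list was at 7092 ± 866 in WT, 6473 ± 682 in Kdm6bΔ/+, 14439 ± 1297 in Asxl1Y588XTg, and 7862 ± 1021 in the double mutant. Its Asxl1Y588XTg level was 2.04 times that of WT. *Erg*, the largest term of the sum, went from 1592 ± 155 to 1916 ± 142, and the median HSC gene had a larger log2 fold change, 1.79, than *Scarf1* at 1.28. The endothelial sum was at 6205 ± 472, 6108 ± 152, 11411 ± 2441, and 7579 ± 647 in the same order. *Vwf*, the von Willebrand factor gene of endothelium and platelets, was at 1002 (replicate 1), 492, and 949 normalized counts in WT and at 3138, 5848, and 2174 in Asxl1Y588XTg, and it made up 55.8% of the rise of the endothelial sum. Without *Vwf* the endothelial sum was at 5391 ± 196 in WT, 7691 ± 778 in Asxl1Y588XTg, and 6004 ± 339 in the double mutant, and its ratio of Asxl1Y588XTg to WT was 1.43 in place of 1.84. The 10 megakaryocyte and platelet markers, which include *Vwf* and were led by it, went from 2955, 1695, and 2978 in WT to 6640 (replicate 1), 13204, and 5083 in Asxl1Y588XTg and to 4886, 3216, and 4430 in the double mutant. The part of these marker shifts in the levels of the 3 genes was not tested.

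**Figure D4:**
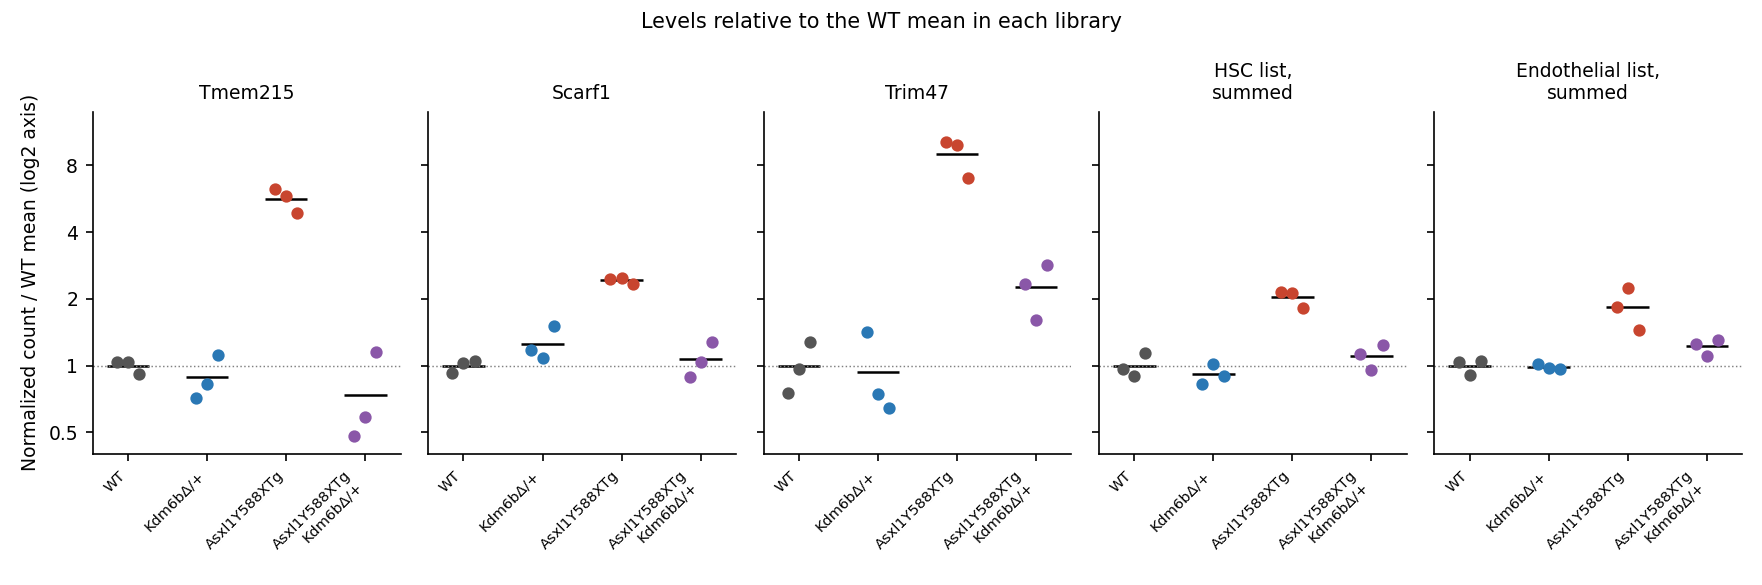
Levels divided by the WT mean (vertical axis, log2 scale) for the 3 genes and for the summed HSC and endothelial lists in each library (points), with group means (bars). The 3 genes and both sums are highest in Asxl1Y588XTg, where the HSC sum is 2.04 times and the endothelial sum 1.84 times the WT mean (1.43 times without *Vwf*).

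The basement membrane list summed to 1006 ± 34.9 in WT, 1951 ± 196 in Asxl1Y588XTg, and 1339 ± 269 in the double mutant, 1.94 times WT in Asxl1Y588XTg. For the remaining cell type markers the ratio of the Asxl1Y588XTg mean to the WT mean was 0.943 for LK progenitors, 0.899 for neutrophils, 0.958 for monocytes and macrophages, 0.916 for mast cells and basophils, and 0.861 for erythroid cells. In the double mutant these ratios were 0.934, 0.996, 0.989, 0.852, and 0.701. The erythroid sums overlapped, at 21520, 13172 (replicate 2), and 22024 in WT and 13260.5, 13834.5, and 21761 in Asxl1Y588XTg. Of 9 tested erythroid genes, 2, *Hbb-bt* and *Alas2*, were called lower in the double mutant than in WT (log2 −1.11 and −1.49), against 0.0695% of all tested genes. With all genotypes in 1 fit 5 genes in place of 11 were called lower in that comparison. With a term for Y-linked transcripts added to that fit the number was 0, so both calls were lost. Y-linked transcripts separated these genotypes completely, so the term was set by the other genotypes alone. The cause of the loss was not tested. Of 8 tested megakaryocyte and platelet genes, 1 was called higher in the double mutant than in WT, against 0.145% of all tested genes. It was *Ppbp*, a platelet chemokine gene (log2 2.49, SE 0.36, edgeR adjusted p = 0.0241). In Asxl1Y588XTg the ratio to WT was 0.951 for T and NK cells, led by *Nkg7*, and 0.701 for B cells, led by *Cd79b*. The B cell sums overlapped, at 2608 ± 929 in WT and 1829 ± 1159 in Asxl1Y588XTg. In the double mutant the ratios to WT were 0.905 for T and NK cells and 1.03 for B cells. Stromal markers, led by *Cxcl12*, were at 1.26 times WT in Asxl1Y588XTg and 1.76 times WT in the double mutant. Their sums were 1790 (replicate 1), 1618, and 3246 in the double mutant libraries and 1504, 1424, and 1823 in Asxl1Y588XTg, so 1 double mutant library carried most of the difference.

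Relatives of *Scarf1* and *Trim47* by protein family were counted in the same comparisons. Of 23 tested scavenger receptor genes other than *Scarf1*, 1 (4.35%) was called higher in Asxl1Y588XTg than in WT, against 1.58% of all tested genes. That gene was *Pear1*, a receptor of the same EGF repeat type first described on platelets, at 169, 141, and 134 normalized counts in WT and 515, 508, and 348 in Asxl1Y588XTg (log2 1.62, SE 0.19, edgeR adjusted p = 0.00360). None was called lower in the double mutant than in Asxl1Y588XTg by edgeR with the filter, with 3 of 23 at an unadjusted p under 0.05 against 9.81% of all tested genes. DESeq2 called 1 lower, as did edgeR without the filter, with all genotypes in 1 fit, with a term for Y-linked transcripts, or without double mutant replicate 3. *Timd4*, a phosphatidylserine receptor of macrophages, was called higher there (log2 1.99, SE 0.34, edgeR adjusted p = 0.0202), against 0.145% of all tested genes, and DESeq2 also called *Lrp1*, a lipoprotein receptor, higher. The list medians were 0.17 and 0.12 on the log2 scale.

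Of 47 tested TRIM genes other than *Trim47*, edgeR called 0 in either of these comparisons with the filter on low counts. Without the filter it called 1 higher in Asxl1Y588XTg and 2 lower in the double mutant, and 1 was called higher in Asxl1Y588XTg with all genotypes in 1 fit or with a term for Y-linked transcripts. With 1.58% of all genes called higher and 1.59% lower, a list of this size holds too few genes to tell that count from the background. At an unadjusted p under 0.05, 4 were higher and 1 lower in Asxl1Y588XTg against WT, and 1 was higher and 10 lower in the double mutant against Asxl1Y588XTg. Over all tested genes these shares were 7.3% higher and 2.05% lower in the first comparison and 5.64% higher and 9.81% lower in the second. DESeq2 called 1, *Mid2*, higher in Asxl1Y588XTg and 0 lower in the double mutant. Medians were 0.11 and −0.15, and the summed TRIM level was 33391 ± 1313 in WT and 33693 ± 129 in Asxl1Y588XTg, where *Trim28* was the most abundant. Of 17 tested basement membrane genes, *Col18a1* and *Lama5* were called higher in Asxl1Y588XTg (log2 3.51 and 2.63) and lower in the double mutant (log2 −2.39 and −1.05), and the list medians were 0.90 and −0.11. The 2 higher calls became 1 without WT replicate 3, without Asxl1Y588XTg replicate 1, or without Asxl1Y588XTg replicate 2, and 4 without WT replicate 1 or with all genotypes in 1 fit. They became 5 with DESeq2 or without the filter. The 2 lower calls became 0 without double mutant replicate 2 and 1 without double mutant replicate 1, without Asxl1Y588XTg replicate 2, or with a term for Y-linked transcripts. *Col18a1* overlaps *Slc19a1* on the other strand, so its reads are uncertain where strand was not used.

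The genes around the 3 were examined as regions, since position played no part in the choice. For each gene the 5 tested genes on either side by start site were taken, 30 in all. Of these, 0 were called by edgeR in Asxl1Y588XTg against WT and 0 in the double mutant against Asxl1Y588XTg, DESeq2 called 0 in both, and 0 and 3 had an unadjusted p under 0.05, against 9.35% and 15.4% of all tested genes. At the shares of all genes called, 1.58% and 1.59%, so few genes do not tell a count of 0 from the background. Their log2 fold changes ran from −0.25 for *Aco1* to 0.35 for *Tlcd2* in the first comparison and from −0.37 for *Trim65* to 0.30 for *Mir22hg* in the second. The nearest to *Tmem215* were *Ndufb6* and *Aptx*, with starts 192.8 and 231.0 kb from its own. *Prpf8* and *Slc43a2* were at 26.7 and 18.2 kb from *Scarf1*, and *Wbp2* and *Trim65* at 40.2 and 3.9 kb from *Trim47*. These distances use GENCODE starts, and that of *Trim47* lies upstream of the RefSeq start behind its promoter window. *Trim65*, which shares exon bases with *Trim47*, was at 332 ± 84.8 normalized counts in WT, 354 ± 32.0 in Asxl1Y588XTg, and 271 ± 5.36 in the double mutant.

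**Figure D5:**
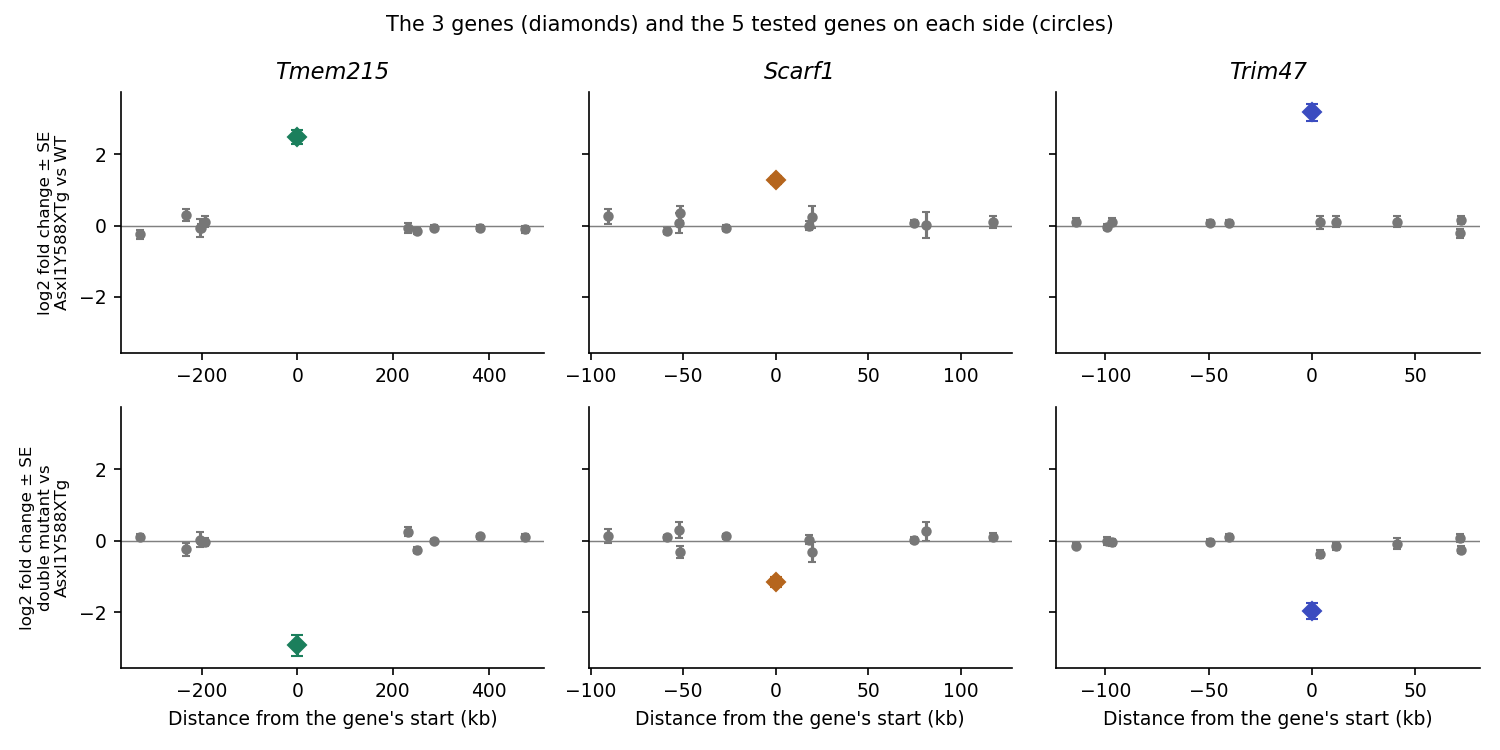
Log2 fold changes with SE (vertical axes) of the 3 genes (diamonds) and of the 5 tested genes on each side (circles) against the distance between start sites in kb (horizontal axes, lower coordinates to the left), for Asxl1Y588XTg against WT (top) and the double mutant against Asxl1Y588XTg (bottom). The neighbours lie between −0.37 and 0.35, and the 3 genes, chosen for their changes, lie outside that range.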

How the data were processed

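RNA was sequenced from bead-enriched Lin-cKit+ bone marrow cells of individual mice. Per the submitters' processing notes and the methods of the study, the authors used FastQC, Trimmomatic, STAR, and HTSeq with the mm10 build. They deposited 1 matrix of raw counts of reads per gene, and its annotation release and strand setting are not given in the sources used here. The labels and the methods of the study differ on library kit and sequencer.

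Columns were matched to samples by their genotype and number. Of 55291 genes, 22587 had no reads and 15825 passed the filterByExpr function of edgeR 4.0.16 (R 4.3.3), applied to the 4 genotypes. Counts were scaled with TMM factors to the mean library size of 17578063 reads. Each comparison was fitted to its 6 libraries with a robust quasi-likelihood model, and the difference between the 2 effects of the deletion was fitted to all 12. The Benjamini-Hochberg adjustment of p-values covered all tested genes. The SE is the log2 fold change divided by the square root of its F statistic, without sign. Alternatives were DESeq2 1.42.0, RLE scaling in place of TMM, no filter, a minimum mean count of 50, 1 fit of all genotypes, and a replicate block. Others were each library left out and a term for Y-linked transcripts. That term was always added to the fit of all 12 libraries, so its counterpart is the 1 fit of all genotypes. Subsets by Y-linked transcripts (4 genes, at least 100 reads) and the endothelial sum without *Vwf* were added after the data were seen. Pattern likeness used log2 normalized counts with a prior count of 2. The code was tested on simulated data.

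The 3 genes and all gene lists were chosen with earlier results of these data known. Lists of HSC, endothelial, basement membrane, scavenger receptor, and TRIM genes and of cell type markers came from general knowledge. Named genes were the 3 genes, *Kdm6b*, *Asxl1*, *Kdm6a*, the 5 most alike to each, the nearest neighbours and any called, up to 6 called genes per list with the largest fold change, and the most abundant and near-absent markers. The neighbours with the lowest and highest fold changes, *Hbb-bt*, *Alas2*, *Ppbp*, and genes called by DESeq2 were named after their values were seen. Promoter windows came from RefSeq (GRCm38.p6), which matched 2 of the 3 genes, and positions from GENCODE vM21. An exact permutation test of 3 against 3 mice cannot give a p below 0.1, so none was used. Some genes that this rule names are not reported here.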

Additional observations from a re-analysis of the deposited data

Results flagged for a closer look

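The effect of the *Kdm6b* deletion differed between the WT and Asxl1Y588XTg backgrounds for *Tmem215*, by −2.77 on the log2 scale, and for *Scarf1*, by −1.51. They were the 2 genes that stood out in the edgeR fit of this difference over the 12 libraries. The genes were chosen for this pattern, so the values are a description and no test is drawn from them. No gene stood out with a term for Y-linked transcripts, at a mean count of at least 50, or when any 1 of 10 of the 12 libraries was left out. Without Asxl1Y588XTg replicate 3 there were 10 such genes, without double mutant replicate 3 there were 7, with DESeq2 66, and without the filter on low counts 258, and *Trim47* was among the last 2 sets. With the term for Y-linked transcripts the difference was −2.77 (SE 0.42) for *Tmem215* and −1.51 (SE 0.21) for *Scarf1*. At a mean count of at least 50 it was −2.76 (SE 0.42) and −1.50 (SE 0.21). *Tmem215* lay lower in all 3 double mutant libraries than in all 3 Asxl1Y588XTg libraries, while its Kdm6bΔ/+ and WT libraries overlapped. *Scarf1* fell in the same way on the Asxl1Y588XTg background, and on the WT background its 3 Kdm6bΔ/+ libraries lay above the WT libraries.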

How the results depend on the processing

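In the comparisons that chose the genes, all alternative log2 fold changes of *Tmem215*, *Scarf1*, and *Trim47* kept their direction. Those of Asxl1Y588XTg against WT ran from 2.41 to 2.59, 1.22 to 1.31, and 3.00 to 3.40, and those of the double mutant against Asxl1Y588XTg from −3.39 to −2.67, −1.31 to −1.04, and −2.19 to −1.79. In the other comparisons 3 values moved by more than the SD of the log2 levels between libraries of a genotype. *Scarf1* was at 0.12 in Kdm6bΔ/+ against WT without libraries with Y-linked transcripts. With each library left out, *Tmem215* ran from −0.89 to −0.18 in the double mutant against WT and from −3.22 to −2.53 in the difference of the deletion effects. No level moved.

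Counts of called genes depended on the fit, and the cause was not tested. In Asxl1Y588XTg against WT (255 genes) DESeq2 called 473, no filter gave 613, and a mean count of at least 50 gave 149. All genotypes in 1 fit gave 446, and that fit with a term for Y-linked transcripts gave 337. Libraries without Y-linked transcripts gave 110, the same fit as without Asxl1Y588XTg replicate 2. The counts were 110 to 251 when each library was left out. In the double mutant against Asxl1Y588XTg (275) the counts were 446 with DESeq2, 808 without the filter, 149 at a mean of 50, 162 in 1 fit, 48 with a term for Y-linked transcripts, and 56 to 274 without each library. In Kdm6bΔ/+ against WT (15) they were 39, 52 without the filter, 7 in 1 fit, 6 with the Y term, and 7 to 26. In the double mutant against WT (34) they were 114, 180, 14, 3, and 14 to 50 in the same order. In the double mutant against Kdm6bΔ/+ (15) they were 104, 207, 3, 2, and 5 to 34, with 34 among libraries with Y-linked transcripts, the same fit as without Kdm6bΔ/+ replicate 2. In the difference of the deletion effects (2) they were 66 with DESeq2, 258 without the filter, 0 at a mean of 50, 0 with the Y term, and 0 to 10.

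HSC genes called higher in Asxl1Y588XTg (19) numbered 24 with DESeq2, 22 in 1 fit, and 22 with the Y term. They numbered 11 among libraries without Y-linked transcripts and 10 to 17 without each library. Those called lower in the double mutant (18) numbered 22 with DESeq2, 13 in 1 fit, and 3 with the Y term. Without each library they numbered 6 to 16. Endothelial genes called higher (6) numbered 9 with DESeq2, 8 in 1 fit, and 8 with the Y term. They numbered 3 among libraries without Y-linked transcripts and 3 to 7 without each library. Those called lower (4) numbered 5 with DESeq2, 8 without the filter, 3 in 1 fit, and 2 with the Y term. Without each library they numbered 2 to 4.

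The replicate numbers share only a number. Same-numbered libraries correlated at a median of −0.0304 over 18 pairs (−0.109 to 0.0677), against 0.0127 over 36 other pairs. With a replicate block 101 genes were called in Asxl1Y588XTg against WT, 71 in the double mutant against Asxl1Y588XTg, and 66 in the double mutant against WT. The block left 10 HSC and 3 endothelial genes higher, and 10 and 2 lower, and 0 basement membrane genes lower in place of 2. It ended the call of *Trim47* in the double mutant against Asxl1Y588XTg (−1.99) and that of *Tmem215* in the difference of the deletion effects (−2.79).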
